A study of Homo sapiens with 4 samples.

Results

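The miR-146 and miR-155 microRNAs of H661 cells were followed as every row of the deposited count table whose name, without the arm suffix, is miR-146a, miR-146b or miR-155. The rule found 3 of 826 listed miRNAs, namely both arms of miR-146b (hsa-miR-146b-5p and hsa-miR-146b-3p) and hsa-miR-155-5p, and all 3 were among the 401 rows with enough counts to test. The arms of miR-146a and miR-155-3p were not analysed here. H661 is an established human lung cancer line, known as a large cell carcinoma. Cells in RPMI1640 with 10% serum received either DMSO, the solvent, or 2.5 µM entinostat, a benzamide drug that blocks class I histone deacetylases, over 8 h. There were 2 small RNA libraries per treatment, and the labels name no genetic change in either group. The comparison asks how the abundance of each miRNA differed between entinostat and DMSO. The labels do not tell whether replicates were separate cultures, and each p-value therefore reflects only the variation among these libraries, which can be technical.

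A miRNA is cut from a hairpin precursor, and either arm of the hairpin, 5p or 3p, can be loaded into an Argonaute protein. The loaded arm pairs with messenger RNAs mainly through its seed, bases 2 to 8 from the 5′ end. In cells of the immune system and in epithelia, NF-kB is known to raise transcription of miR-146a and miR-155, and miR-146b is also reported to respond to inflammatory signals. The miR-146 family is known to repress TRAF6 and IRAK1, proteins that carry Toll-like and interleukin-1 receptor signals to NF-kB. The family thus acts as a brake. In contrast, miR-155 is known mostly as a promoter of inflammatory responses, with SOCS1 and SHIP1 (INPP5D) among its targets. Whether NF-kB was active in these cells cannot be read from miRNA counts.

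The mature sequences show which molecules the counts stand for and how the members differ in their seeds, and miR-146a-5p is given only for comparison with its near-identical relative. Capitals mark the seed. Sequences and positions are from RefSeq on GRCh38.p14.
miR-146b-5p: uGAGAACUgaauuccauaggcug
miR-146b-3p: gCCCUGUGgacucaguucuggu
miR-155-5p: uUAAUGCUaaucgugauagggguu
miR-146a-5p: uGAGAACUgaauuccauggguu

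The 3 members have 3 different seeds. Of the RefSeq mature miRNAs, miR-146a-5p and miR-7153-5p share the seed of miR-146b-5p, and no other listed row shared a seed with a member among the 729 rows whose names matched RefSeq. The first 17 bases of miR-146a-5p and miR-146b-5p are identical. Counted from 1 at the 5′ end of miR-146a-5p, the differences are G18A and U21C, and miR-146b-5p is 23 bases long against 22. How the authors assigned reads that end before base 18 is not given in the sources used here, so the 5p level could include reads that either miRNA would give. No other RefSeq mature miRNA has the seed of miR-146b-3p or that of miR-155-5p.

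Both miR-146b arms come from 1 hairpin, MIR146B, of 73 bases (chr10:102436512-102436584, plus strand). It is shown to mark the arms, in capitals, on either side of a stretch of 14 bases that holds the loop.
MIR146B: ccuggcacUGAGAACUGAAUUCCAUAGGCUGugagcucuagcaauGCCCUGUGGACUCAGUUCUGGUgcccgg
In GENCODE release 29 (GRCh38) no other gene overlapped this hairpin, and the nearest was CUEDC2, 3851 bases away on the minus strand. The MIR155 hairpin (chr21:25573980-25574044, plus strand) lies in exon 4 of the 4 exons of MIR155HG, the long non-coding host transcript also known as BIC. The 2 hairpins thus lie on different chromosomes, while the 2 miR-146b arms share a precursor and are not independent of each other.

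Libraries held 547875 to 938559 miRNA counts. Totals did not separate the treatments (two-sided exact permutation test, p = 0.667, where 2 libraries against 2 cannot go below 0.333). A count of 0 allowed up to 3.20 to 5.48 CPM (counts per 1e+06 counts), from 3 counts, which covers counting error only. The H661 libraries were poor in those epithelial miRNAs that had a row, of a class that lung carcinoma lines can express strongly. Of 8 listed epithelial miRNAs, 5 had a row (miR-200a, miR-141 and miR-429 were not analysed here), and their summed level was 57.0 to 76.0 CPM with DMSO and 81.7 to 92.0 CPM with entinostat. Among these, miR-200c-3p was at 33.2 and 24.9 CPM with DMSO and 42.3 and 46.1 CPM with entinostat, and its libraries did not overlap. The libraries of miR-203a-3p and miR-375 overlapped, at log2 fold changes of -0.46 and 0.08. In library order, DMSO first, miR-205-5p had 0, 2, 9 and 4 counts and miR-200b-3p had 3, 0, 0 and 0. Levels below are CPM after TMM scaling (the trimmed mean of M-values of edgeR) unless called deposited CPM. Recovery in library preparation can differ between sequences, so levels of different miRNAs are compared only as counted.

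The most abundant member was miR-146b-5p, the main arm of its hairpin and the one directed at TRAF6 and IRAK1 in earlier work. The DMSO libraries held 386 and 259 counts of it and the entinostat libraries 289 and 413. These are levels of 413.1 and 461.4 CPM with DMSO and 531.9 and 544.4 CPM with entinostat. Both entinostat libraries lay above both DMSO libraries, and the group means were 437.2 ± 34.1 and 538.2 ± 8.83 CPM (SD, n = 2). The fold change was 1.24 (95% interval 1.03 to 1.49), a log2 fold change of 0.31 with a standard error of 0.12. In the edgeR quasi-likelihood test this had an unadjusted p of 0.0292 and a Benjamini-Hochberg adjusted p of 0.595 over the 401 tested miRNAs, so it did not pass the threshold of 0.05. Its abundance rank among listed miRNAs in a library ran from 133 to 147.

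The 3p arm, miR-146b-3p, is the minor arm of the same hairpin, with another seed and so another set of possible targets. The DMSO libraries held 19 and 5 counts of it and the entinostat libraries 19 and 32. Its levels were 20.3 and 8.91 CPM with DMSO and 35.0 and 42.2 CPM with entinostat. The lowest entinostat library was 1.72-fold above the highest DMSO library, while the DMSO libraries themselves differed 2.28-fold. Group means were 14.6 ± 8.08 and 38.6 ± 5.10 CPM (SD, n = 2). The fold change was 2.46, a log2 fold change of 1.30 (95% interval 0.29 to 2.32) with a standard error of 0.44. Among tested miRNAs this log2 fold change ranked 2 from the top, and the p ranked 8. The edgeR quasi-likelihood test gave an unadjusted p of 0.0157 and an adjusted p of 0.595, which is not past the threshold.

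The size of the miR-146b-3p difference rested on the DMSO libraries. Without DMSO replicate 1 the log2 fold change was 2.11, and without DMSO replicate 2, the library with 5 counts, it was 0.92. Counting error is wide at this depth. In deposited CPM the exact Poisson 95% interval was 12.2 to 31.6 and 2.89 to 20.8 CPM in the DMSO libraries and 20.9 to 54.2 and 29.1 to 60.0 CPM in the entinostat libraries. The interval of DMSO replicate 1 thus overlapped those of both entinostat libraries, and that of DMSO replicate 2 overlapped neither.

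The third member, miR-155-5p, is the guide arm directed at SOCS1 and SHIP1. The DMSO libraries held 38 and 30 counts of it and the entinostat libraries 39 and 48. Levels were 40.7 and 53.4 CPM with DMSO and 71.8 and 63.3 CPM with entinostat. Here too both entinostat libraries lay above both DMSO libraries, by at least 1.18-fold, against a 1.31-fold difference between the DMSO libraries. Group means were 47.1 ± 9.03 and 67.5 ± 6.02 CPM (SD, n = 2). The fold change was 1.46 (95% interval 0.973 to 2.19), a log2 fold change of 0.54 with a standard error of 0.26, and the interval included no change. The unadjusted p was 0.0639 and the adjusted p 0.595 in the edgeR quasi-likelihood test. Leaving out DMSO replicate 1 gave a log2 fold change of 0.33, and leaving out DMSO replicate 2 gave 0.71. Within each treatment the library with fewer total counts had the higher level of miR-155-5p, and the part of depth in these values was not tested.

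**Figure D1:**
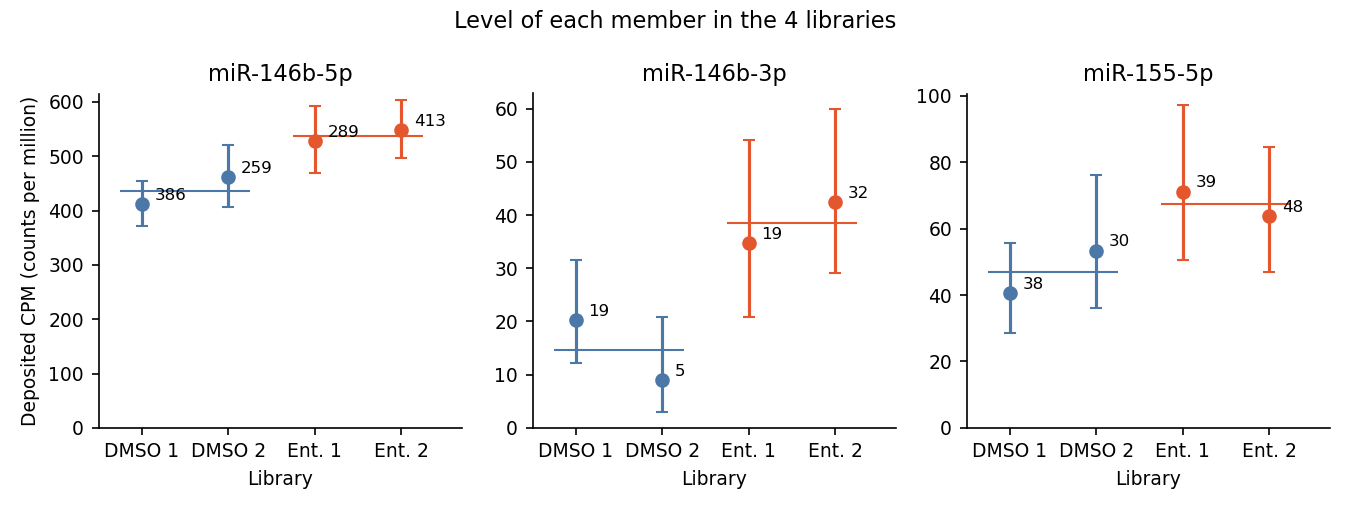
Deposited CPM of miR-146b-5p, miR-146b-3p and miR-155-5p (vertical axes, each from 0) in the 4 libraries (horizontal axis), with the count beside each point, exact Poisson 95% intervals as bars and group means as lines. Both entinostat libraries lie above both DMSO libraries for each miRNA, and the intervals of single libraries overlap for many pairs.

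All 3 members thus had non-overlapping libraries with entinostat on the higher side, but none was called. Over all tested miRNAs, 0 of 401 were called in either direction (0% by the edgeR quasi-likelihood test at an adjusted p under 0.05). Without entinostat replicate 1 there were 6 calls, none of them a member. At an unadjusted p under 0.05 the test gave 27 miRNAs, 12 of them higher with entinostat (2.99% of those tested), and these 12 include both arms of miR-146b. The split of 12 higher and 15 lower became 38 and 6 with upper quartile factors, and 27 and 21 without entinostat replicate 1. The count of calls was 0 by DESeq2 too, where 15 miRNAs had an unadjusted p under 0.05, and 0 by limma-voom, where 31 did. Libraries did not overlap, with entinostat higher, in 20.7% of tested miRNAs, so a single member with this pattern is common in the table. For a single miRNA the exact permutation test gave p = 0.333, the smallest that 2 libraries against 2 can give (two-sided). The members together made up 0.0472% and 0.0524% of all counts with DMSO and 0.0633% and 0.0655% with entinostat. Most of that sum is miR-146b-5p, with 1347 counts over the 4 libraries against 75 for miR-146b-3p and 155 for miR-155-5p.

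**Figure D2:**
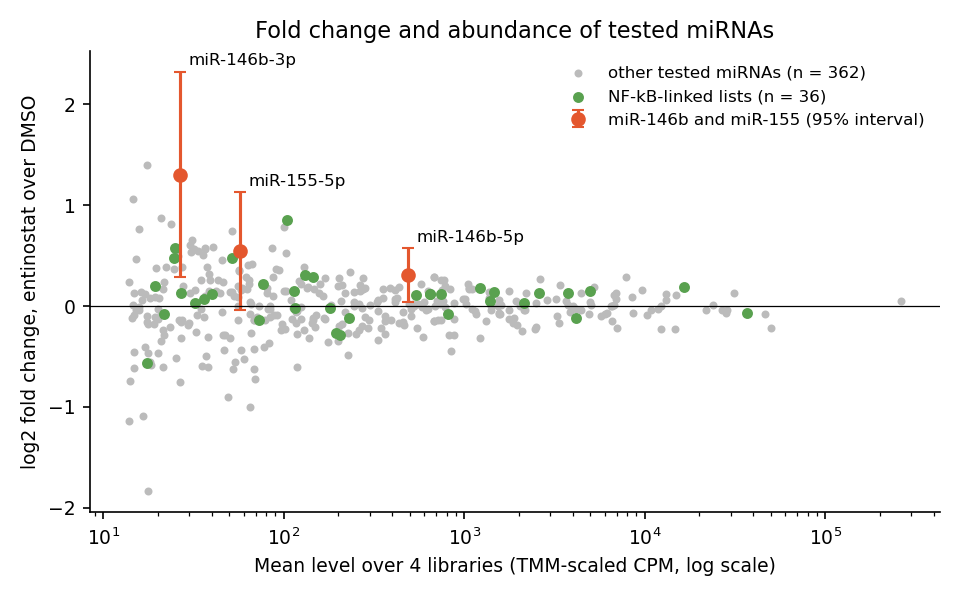
Log2 fold change of entinostat over DMSO (vertical axis) against mean TMM-scaled CPM over the 4 libraries (horizontal axis, log scale) for the 401 tested miRNAs, with the 3 members and their fitted 95% intervals in orange and the NF-kB-linked lists in green. The members lie at 1.30, 0.54 and 0.31, and the spread of all miRNAs widens toward low levels, where miR-146b-3p and miR-155-5p sit.

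The order of levels was miR-146b-5p, then miR-155-5p, then miR-146b-3p in every library. The ranges over all 4 libraries were 413.1 to 544.4 CPM, 40.7 to 71.8 CPM and 8.91 to 42.2 CPM. The first range stands clear of the others, while those of miR-155-5p and miR-146b-3p touch, since the highest miR-146b-3p library (42.2 CPM) passes the lowest miR-155-5p library (40.7 CPM). In the order of all listed miRNAs by mean level, miR-146b-5p stood at rank 140 between miR-425-3p and miR-339-3p, whose means of 491.4 and 461.6 CPM lay inside its own range. At rank 280 miR-155-5p stood between let-7a-3p (57.6 CPM) and miR-194-5p (56.4 CPM), and miR-146b-3p stood at rank 342 between miR-3690 (26.7 CPM) and miR-548j-5p (26.6 CPM). The library ranges of each member and of its neighbours overlapped.

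The arm ratio of miR-146b compares products of 1 precursor within 1 library and so needs no scaling. It is formed from the same 3p and 5p counts as above and is not a separate line of evidence. The library values of this ratio did not overlap between treatments. The 3p arm made up 19 of 405 miR-146b counts, or 4.69% (exact Clopper-Pearson 95% interval 2.85 to 7.23%), in DMSO replicate 1. In DMSO replicate 2 it was 5 of 264 counts, or 1.89% (0.618 to 4.36%). With entinostat it was 19 of 308 counts, or 6.17% (3.75 to 9.47%), in replicate 1 and 32 of 445 counts, or 7.19% (4.97 to 10.0%), in replicate 2. The 5p arm therefore outnumbered the 3p arm in every library, by 12.9-fold to 51.8-fold. Both entinostat shares lay above both DMSO shares, though the interval of DMSO replicate 1 overlapped both entinostat intervals. That of DMSO replicate 2 overlapped the interval of entinostat replicate 1 but not that of entinostat replicate 2.

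**Figure D3:**
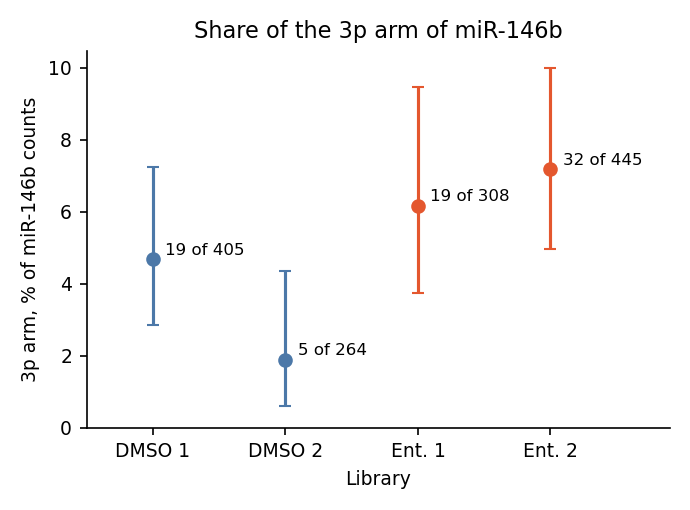
Share of miR-146b counts that came from the 3p arm (vertical axis, %, from 0) in the 4 libraries, with exact 95% binomial intervals as bars and the counts beside each point. The shares are 4.69 and 1.89% with DMSO and 6.17 and 7.19% with entinostat.

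The mean 3p share was 3.29 ± 1.98% with DMSO and 6.68 ± 0.723% with entinostat (SD, n = 2). On the log2 scale, with 0.5 counts added to each arm, the 3p to 5p ratio was -4.93 ± 0.88 with DMSO and -3.78 ± 0.16 with entinostat (SD, n = 2). The difference was 1.15, a 2.23-fold higher ratio with entinostat, with p = 0.333 in the two-sided exact permutation test, the smallest this design allows. Leaving out DMSO replicate 2 gave 0.53, and leaving out DMSO replicate 1 gave 1.78. The share in DMSO replicate 2 thus sets much of its size.

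The same quantity could be formed for 92 hairpins with both arms tested. That of miR-146b was the largest difference toward the 3p arm, followed by miR-105 at 1.04, whose rarer arm was at 14.6 CPM. In absolute size miR-146b ranked 2, after let-7b at -3.14. The rarer arm of let-7b was at 17.7 CPM, with 0 counts in entinostat replicate 1. The 3p share did not overlap and was higher with entinostat in 14 of the 92 hairpins (15.2%). The median absolute difference was 0.24 over all 92, 0.30 over the 56 hairpins whose rarer arm was under 100 CPM, and 0.17 over the other 36. A difference at least as large as that of miR-146b occurred in 2 of the 56, miR-146b included, and in 0 of the 36. Both arms lay above 0 in 27 of the 92 hairpins, and in 5 both arms had non-overlapping libraries with entinostat higher, miR-146b among them. The mean 3p share of miR-146b over the 4 libraries was 4.99%. In 57 of the 92 hairpins the minor arm had a larger share, and the median was 8.68%.

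**Figure D4:**
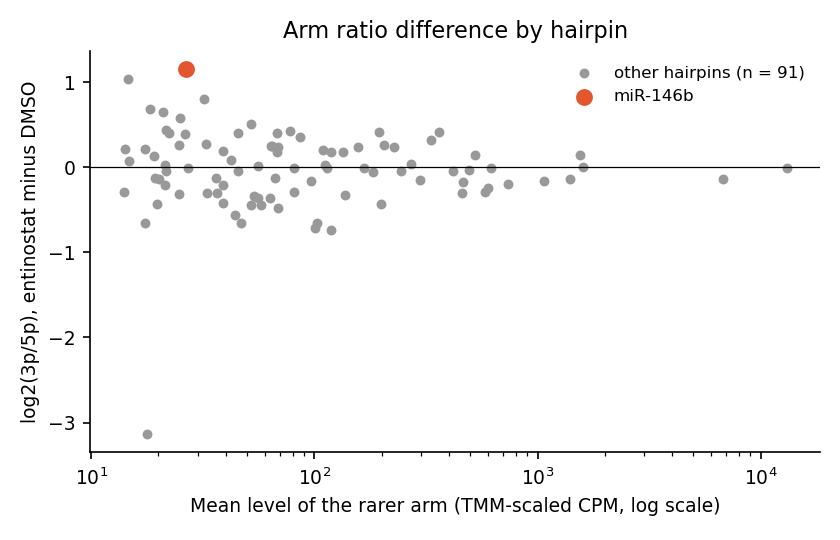
Difference of log2(3p/5p) between entinostat and DMSO (vertical axis) against the mean TMM-scaled CPM of the rarer arm (horizontal axis, log scale) for 92 hairpins, with miR-146b in orange. It sits at 1.15, above all other hairpins, in the low range where the spread between hairpins is widest.

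The miRNAs whose 4 library values were most like those of each member were found by the root mean square distance of log2 levels, each miRNA centred on its own mean. This likeness is over 4 libraries only and is a description. Nearest to miR-146b-5p were miR-758-3p (distance 0.03, from the imprinted 14q32 region), miR-210-3p (0.04, the miRNA induced by hypoxia) and miR-483-3p (0.05, from an intron of IGF2), against a median distance of 0.23 over the 400 other tested miRNAs. Nearest to miR-155-5p were miR-15b-3p (0.09), miR-7706 (0.11) and miR-9-3p (0.11), against a median of 0.35. Nearest to miR-146b-3p were miR-145-5p (0.32), miR-4483 (0.34) and miR-129-2-3p (0.40), against a median of 0.86. The members were not each other's nearest. Seen from miR-155-5p, miR-146b-5p came at rank 10 and miR-146b-3p at rank 385. Seen from miR-146b-5p, miR-155-5p came at rank 97 and its own 3p arm at rank 394 of 400, at a distance of 0.75. Seen from the 3p arm, whose distances to other miRNAs are wider, the same distance put the 5p arm at rank 64, with miR-155-5p at rank 56.

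The tested miRNAs nearest to the members on the same chromosomes lay closer to 0 or below it. On chromosome 10 the nearest tested miRNAs were miR-3158-3p, whose name covers 2 loci, and miR-1307-3p, 0.835 and 0.958 Mb from MIR146B. Their log2 fold changes were -0.08 (95% interval -0.54 to 0.37) and -0.22 (-0.40 to -0.03), with edgeR adjusted p of 0.925 and 0.595. Farther off, at 11.3 Mb, miR-4483 was at 48.2 and 26.7 CPM with DMSO and 66.3 and 65.9 CPM with entinostat, with a 95% interval of 0.05 to 1.45 around a log2 fold change of 0.74 and an edgeR adjusted p of 0.595. It is also among the rows most like miR-146b-3p. On chromosome 21 the tested miRNAs nearest to MIR155 were those of the miR-99a, let-7c and miR-125b-2 cluster, 8.98 to 9.03 Mb away. The most abundant of them, miR-99a-5p, ranged from 253611 to 275008 CPM, against 40.7 to 71.8 CPM for miR-155-5p, with a log2 fold change of 0.05 (-0.10 to 0.19). Its interval overlaps that of miR-155-5p, and the difference between the fold changes was not tested.

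Other miRNAs tied to NF-kB fell into a list reported to respond to it and a list reported to be directed at its pathway. The lists share the name miR-23b, so the tested row miR-23b-3p counts in both. In the responsive list, 26 rows were tested, 18 above and 8 below 0, with 0 called and a median log2 fold change of 0.12. Over all tested miRNAs 208 lay above and 193 below 0 (51.9% above), with a median of 0.00466. Libraries did not overlap in 8 of the 26 with entinostat higher and in 2 with entinostat lower, against 83 (20.7%) and 80 (20.0%) of the 401 tested miRNAs. Leaving out entinostat replicate 2 gave a median of 0.03, and leaving out DMSO replicate 2 gave 0.07. Rows miR-365a-3p and miR-365b-3p carry the same counts and so count as a pair with 1 source.

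In that list, miR-9-5p, which is directed at NFKB1, was at 1100 and 1188 CPM with DMSO and 1331 and 1262 CPM with entinostat. Its libraries did not overlap, and the log2 fold change was 0.18 (95% interval -0.04 to 0.40; edgeR adjusted p = 0.595). For miR-221-3p, known for repressing the cell cycle inhibitor p27, the log2 fold change was 0.15 (-0.04 to 0.35), and again the libraries did not overlap. Levels of miR-21-5p, an oncogenic miRNA, were 14149 and 16545 CPM with DMSO and 19165 and 15769 CPM with entinostat, so its groups overlapped (log2 fold change 0.19, -0.07 to 0.44). For miR-30b-5p the log2 fold change was 0.30 (-0.12 to 0.72). The most abundant of the list, miR-125b-5p, lay below 0 at -0.07 (-0.24 to 0.10). All of these intervals include 0.

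In the list directed at the pathway, 11 rows were tested, 8 above and 3 below 0, with 0 called and a median of 0.11, or 0.0657 without entinostat replicate 2. Libraries did not overlap in 4 of the 11 with entinostat higher and in 2 with entinostat lower, where all tested miRNAs gave 20.7% and 20.0%. Its member of lowest p was miR-195-3p, at 64.2 and 85.5 CPM with DMSO and 141.7 and 125.2 CPM with entinostat. The log2 fold change was 0.86 (95% interval 0.38 to 1.34, edgeR adjusted p = 0.316). In these libraries it was the more abundant arm of miR-195, and miR-195-5p was at 0.03 (-0.88 to 0.94). Both lists took rows by name without the arm, so both arms of a hairpin can count. A counted arm, such as miR-195-3p, need not be the arm that the reports concern. Next by p were miR-16-2-3p at -0.29 (-0.66 to 0.08) and miR-31-5p, directed at the NF-kB-inducing kinase, at 0.29 (-0.08 to 0.66). The most abundant, miR-181b-5p, directed at the importin KPNA4 that carries NF-kB into the nucleus, was at 3520 and 3689 CPM with DMSO and 3851 and 4009 CPM with entinostat, a log2 fold change of 0.13 (-0.06 to 0.31).

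Rows known as markers of other cell types were also read, since blood cells are known to express miR-155-5p strongly. Every library is labelled as the H661 line, so these rows do not show that such cells were present. Of 7 listed blood miRNAs, 3 had a row, and miR-150-5p, of lymphocytes, had 0 to 3 counts a library. The blood miRNAs miR-142, miR-223, miR-144 and miR-451a were not analysed here. The summed level of the listed blood rows was 1274 to 1295 CPM with DMSO and 1154 to 1657 CPM with entinostat, and the groups overlapped. Nearly all of it was miR-342-3p and miR-486-5p, with log2 fold changes of 0.17 (95% interval -0.21 to 0.55) and -0.06 (-0.42 to 0.31). The endothelial miR-126 rows summed to 1811 to 1997 CPM with DMSO and 1704 to 2251 CPM with entinostat. The mesenchymal and muscle rows, 7 rows for 5 of 6 listed names, did separate, at 80.3 to 96.2 CPM with DMSO and 117.3 to 128.8 CPM with entinostat. Most of that sum was miR-143-3p, whose libraries overlapped, at 58.9 and 83.7 CPM with DMSO and 92.0 and 71.2 CPM with entinostat (log2 fold change 0.22). The list also includes miR-145-5p, the row most like miR-146b-3p, at 11 and 4 counts in the DMSO libraries and 9 and 26 in the others, while miR-1-3p, of muscle, had 0 to 4 counts a library. The epithelial sum given above also separated, as did all 3 members. Among single tested miRNAs, 20.7% separated with entinostat higher, so the pattern is common. The part of any marker row in the members' values was not tested.

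**Figure D5:**
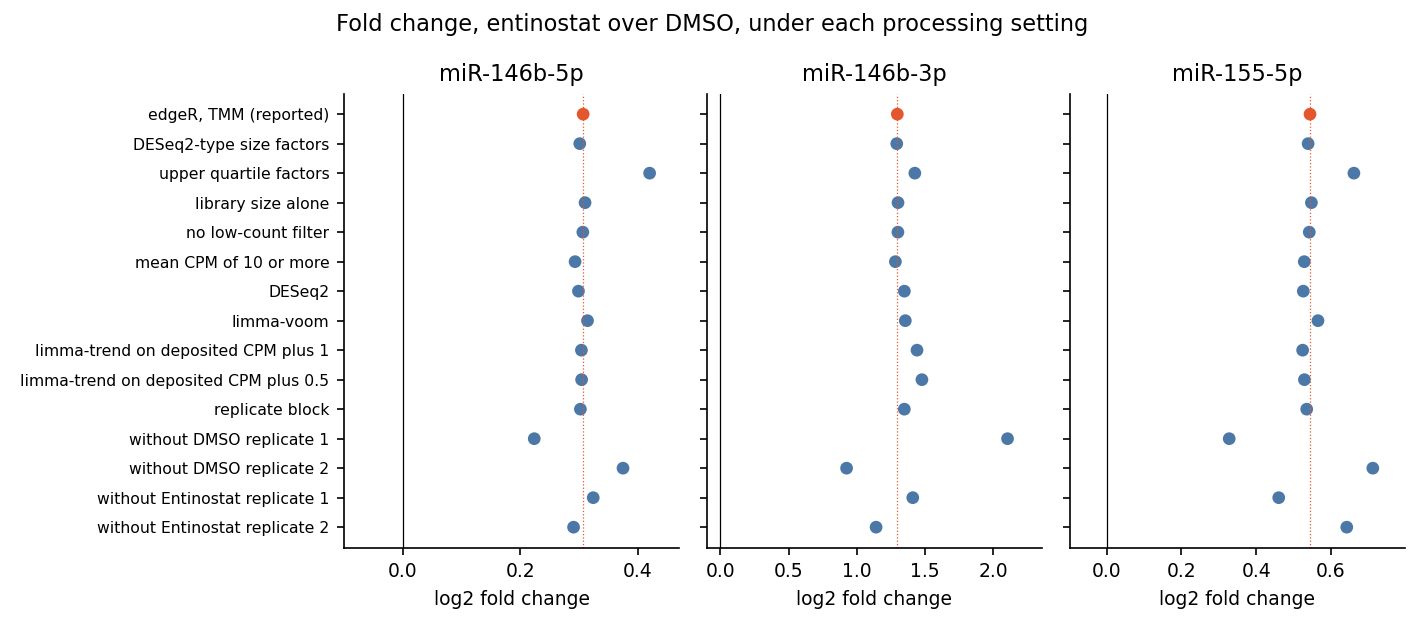
Log2 fold change of entinostat over DMSO (horizontal axis) for each member under the reported fit (orange, dotted line) and 14 alternative settings (blue, 1 row each). All values lie above 0, and leaving out DMSO replicate 1 or 2 gives the farthest values for miR-146b-3p, at 2.11 and 0.92.

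The direction held under each of the 14 alternative settings, and no member was called in any of them. Both entinostat libraries lay above both DMSO libraries for each member, so leaving 1 out could hardly reverse the direction. The other settings use the same 4 libraries, so a steady direction adds little. For miR-146b-5p the log2 fold change ran from 0.22 to 0.42, and the lowest adjusted p was 0.356. For miR-146b-3p it ran from 0.92 to 2.11 with a lowest adjusted p of 0.203, and for miR-155-5p from 0.33 to 0.71 with a lowest adjusted p of 0.395. Upper quartile factors moved the median of all tested miRNAs by 0.12, from 0.00466 to 0.12, and the members by about as much, to 0.42, 1.43 and 0.66.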

How the data were processed

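Small RNA of 4 libraries was sequenced, 2 per treatment. Total RNA was isolated by TRIzol and made into libraries with NEB reagents for small RNA, per the labels' protocols. Reads were handled with bcl2fastq 2.18, per the submitters' processing notes. The sources used here do not name the aligner, counter, annotation or build. The authors deposited whole-number counts per mature miRNA for 826 rows. The authors' deposited CPM equals the count over the column total times 1e+06, within 0.0001 in 100% of rows.

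Counts were scaled by TMM, filtered by filterByExpr (minimum count 10, minimum total 15) and fitted in edgeR 4.0.16 (R 4.3.3). Treatment was the single term of this quasi-likelihood test. Intervals come from fitted standard errors. The common dispersion was 0.00648. The fit was tested on simulated data. Arm shares have Clopper-Pearson 95% intervals and counts have exact Poisson ones. No molecular identifier is named, so these cover counting error only. Alternatives were scaling, the filter, DESeq2 1.42.0, limma 3.58.1 (voom, and trend on log2 of deposited CPM plus 1 or 0.5), a replicate block and each library left out.

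The members and lists were chosen with earlier results of these data known. Lists were recalled without a database. Named miRNAs are all members, the 4 of lowest p and the most abundant of each NF-kB list, the 3 rows most like each member, and rows sharing a seed. The let-7b and miR-105 hairpins, miR-23b-3p, chromosome neighbours, level neighbours and cell type markers were named beside these after their values were seen. Hairpin positions are from GENCODE 29.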

Additional observations from a re-analysis of the deposited data

How the results depend on the processing

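The fold changes of the 3 members kept their direction and stayed short of the threshold under all 14 alternatives. The number of miRNAs called was 0 in all of them except without entinostat replicate 1, where it was 6, none of them a member, so leaving out 1 library gave 0 to 6. In such fits the lone library is assumed to vary like the others. With upper quartile factors the median log2 fold change was 0.24 in the NF-kB-responsive list and 0.23 in the pathway list. With a mean CPM of 10 or more, which tested 12 rows of the pathway list, its median was 0.0662. Leaving out 1 library gave medians of 0.0288 to 0.14 in the responsive list and 0.0657 to 0.14 in the pathway list. The cause was not tested.

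The arm ratio difference of miR-146b was 1.21 with 0 counts and 1.10 with 1 count added, and 0.53 to 1.78 with 1 library left out. The 3 rows most like each member were the same with library size alone. Deviations of libraries with the same replicate number correlated at -0.13 over 237 miRNAs of 100 CPM or more, and crossed ones at 0.13. With 2 libraries per treatment these values mirror each other, so they cannot tell whether replicates were handled in pairs. With the replicate block, log2 fold changes were 0.30, 1.35 and 0.54 for miR-146b-5p, miR-146b-3p and miR-155-5p, with 0 miRNAs called and list medians of 0.12 and 0.10. The crossed replicate block, chosen after seeing the data, also called 0. Depth limits miR-146b-3p most, with 5 counts in 1 library.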
